A study of Mus musculus with 2 samples.

Results

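The 8 genes described here are used as readouts of liver tumors and of liver progenitor cells: Afp, Gpc3, H19, Golm1, Sox9, Cd24a, Ly6d and Cdkn1a. Their rows were taken by gene symbol from the count matrices of both libraries, 8 of 32285 rows in each. The libraries were made by droplet-based single-cell RNA-Seq of mouse liver. The WT library came from wild-type mice and the HKO library from littermates whose miR-33 was deleted in hepatocytes by a Cre recombinase under the albumin promoter (genotype label AlbCRE). Both groups started a CD-HFD (a choline-deficient, high-fat diet) at 8 weeks of age and stayed on it for 6 months. Each library was a pool of 3 livers, in which collagenase-released hepatocytes were mixed at equal numbers with sorted non-parenchymal cells. With 1 library per genotype there was no replicate check and no test, so genotype, animals and library preparation cannot be told apart. Every interval is a 95% interval of counting error.

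In the adult liver most of these genes are silent or low in hepatocytes. Afp (alpha-fetoprotein), Gpc3 (glypican 3, a cell surface proteoglycan) and H19 (an imprinted noncoding RNA) are abundant in fetal liver, are shut down after birth and return in many liver tumors. Golm1 encodes a Golgi membrane protein whose serum level rises in liver disease. Sox9 is a transcription factor of bile duct cells that hepatocytes near the portal vein can switch on after injury. Cd24a encodes a small surface glycoprotein of biliary, progenitor and some blood cells. Ly6d encodes a GPI-anchored surface protein, known from early B cells and keratinocytes and from hepatocytes of older or steatotic livers. Cdkn1a encodes p21, a cyclin-dependent kinase inhibitor induced by p53.

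The deleted miRNA and its possible sites in these genes are shown first, because they are what the genotype changes directly. The mature sequence, from RefSeq, lies at chr15:82198127-82198147 (GRCm38, plus strand) in an intron of Srebf2, and capitals mark the seed, bases 2 to 8.
mmu-miR-33-5p: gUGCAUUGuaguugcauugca
H19 is itself the host of a miRNA, miR-675, whose mature arms lie within the H19 gene on the minus strand of chromosome 7, at 142577112-142577133 (5p) and 142577078-142577099 (3p). Neither arm shares the miR-33 seed.
mmu-miR-675-5p: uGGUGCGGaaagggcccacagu
mmu-miR-675-3p: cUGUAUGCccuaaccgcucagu
These mature miRNAs were not measured by the assay. Mir33 had no row of its own, and 3' counts of its host Srebf2 (1228 UMIs, 24.99 CPM in WT and 414 UMIs, 19.9 CPM in HKO hepatocyte barcodes) do not read the deletion. A UMI is one counted RNA molecule, and CPM is UMIs per 1000000 UMIs.

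The longest 3' UTR of each of the 7 protein-coding genes was searched for the 6 letters AATGCA, which pair with miRNA bases 2 to 7, and for the 7 letters CAATGCA, which pair with bases 2 to 8. Of all 20981 genes searched, 30.2% held the 6 letters and 7.13% the 7 letters. Among the 7, only Golm1 (UTR of 2666 bases) held any, 2 matches of 6 letters of which 1 extended to 7. They lie on the minus strand at chr13:59634674-59634679 (7 letters) and chr13:59636304-59636309 (6 letters) and are printed in the sense of the RNA, with AATGCA in capitals.
Golm1, 7-letter match: tagcgttcaccAATGCAttccagcccag
Golm1, 6-letter match: tcattgatggtAATGCAtcgtaagtctt
For comparison, Abca1, a long-known miR-33 target, held 2 matches of 7 letters in 3156 bases.

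The WT library held 30078 barcodes and 130451427 UMIs, the HKO library 20000 barcodes and 52563185 UMIs. After doublet removal and clustering without the 8 genes, 1934 WT and 1655 HKO barcodes with 5000 or more UMIs were in hepatocyte clusters. All 8 hepatocyte marker genes were detected in both. Median depth was 20123 UMIs in WT and 10685 in HKO, and because of this gap shares of positive barcodes are given after thinning each barcode to 5000 UMIs. Summed over the hepatocyte barcodes, markers of other cells were low: the 9 cholangiocyte markers summed to 62.7 CPM in WT and 49.7 in HKO with 3 of 9 at 0 in both. The endothelial list summed to 30.8 and 36.5 CPM, macrophage to 22.4 and 13.8, stellate to 11.9 and 22.3, T and NK to 9.34 and 23.6, B and plasma to 8.18 and 13.5, and neutrophil to 1.34 and 17.3. Erythroid genes summed to 737 and 113 CPM. Single barcodes among them carried far more: the highest had 658850 CPM of erythroid genes and 9720 CPM of cholangiocyte markers in WT, and 32521 CPM of neutrophil and 14798 CPM of B and plasma markers in HKO. With barcodes limited instead to under 0.1% of UMIs from all these lists, the log2 ratio of HKO over WT was -1.03 for Cdkn1a, -0.91 for Ly6d and -0.66 for Sox9, within the intervals of the values below. Shared cell barcodes between the libraries were not analysed here.

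In hepatocyte barcodes the 8 genes fell into 3 that were common (Cdkn1a, Ly6d and Sox9) and 5 that were rare (Afp, Golm1, Gpc3, Cd24a and H19). The 3 common genes had lower levels in HKO, and Gpc3 had a higher level in HKO. Of the 8, 6 had a mean of at least 1 CPM over the libraries, and H19 and Cd24a did not. Among the 6, 1 (Cdkn1a) was at least 2-fold lower in HKO, against 1.47% of 11603 genes. At least 2-fold higher was 1 (Gpc3), against 1.34% of all genes and 4.89% of those at 1 to 3 CPM. Gpc3 was under 1 CPM in WT and passed the mean of 1 CPM only through HKO. The interval of the ratio lay below 1 for 3 of the 6, against 25.9% of genes, and above 1 for 1, against 24.6%, so that an interval off 1 was ordinary for a gene in these libraries. The median log2 ratio of HKO over WT was -0.47 for the 6 genes and -0.01 for all genes.

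Cdkn1a, the p21 gene (chr17:29090976-29100727), had 4139 UMIs in WT hepatocyte barcodes and 857 in HKO, which is 84.2 and 41.2 CPM and a ratio of 0.489 (0.453 to 0.526). Ly6d (chr15:74762056-74763620) had 6153 UMIs in WT (125 CPM) and 1323 in HKO (63.5 CPM), with HKO over WT at 0.507 (0.478 to 0.538). For Sox9 (chr11:112782224-112787760) the WT barcodes gave 2391 UMIs, or 48.7 CPM, and the HKO barcodes 617, or 29.6 CPM, and the ratio was 0.609 (0.556 to 0.665). All 3 were spread over many barcodes. The barcode with the most UMIs of the gene held at most 2.13% of the total in WT and at most 5.22% in HKO, both for Ly6d.

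**Figure D1:**
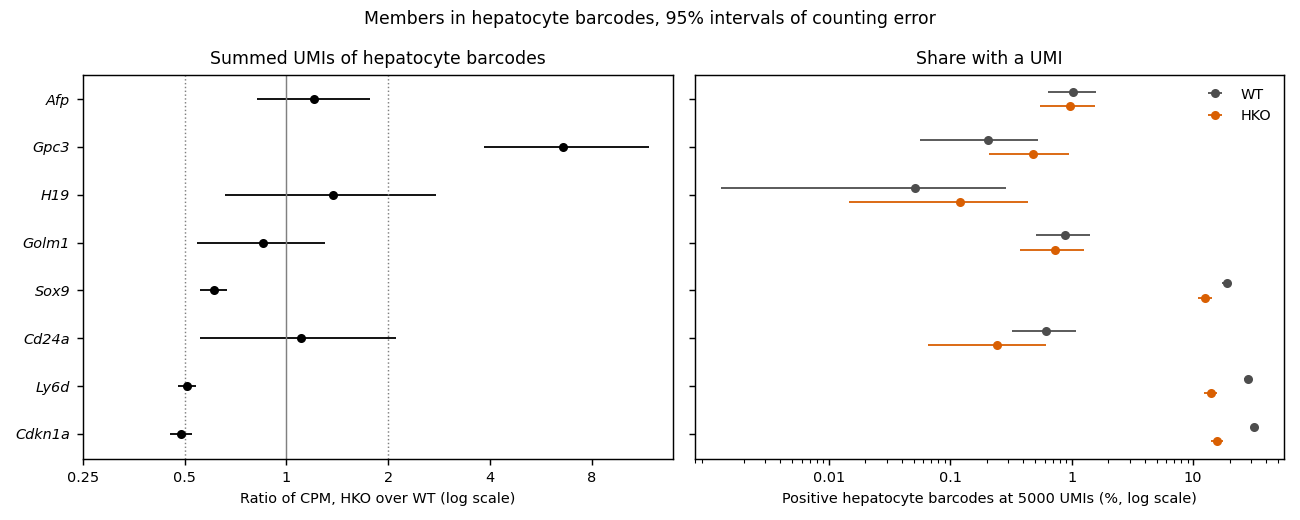
Left, the ratio of CPM in hepatocyte barcodes, HKO over WT, on a log axis with dotted lines at 2-fold in each direction; right, the percentage of hepatocyte barcodes with a UMI of each gene after thinning to 5000 UMIs, on a log axis, in WT (grey) and HKO (orange). Bars are 95% intervals of counting error, and only Gpc3, at 6.58, has an interval wholly above 1.

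The hepatocyte clusters were not the same mix in both libraries: cluster 5 held 625 WT and 902 HKO barcodes and cluster 6 held 496 and 349, while cluster 10 held 281 of WT and fewer than 30 of HKO. Within cluster 5, Sox9 was at 69.5 CPM in WT and 36.7 in HKO, Ly6d at 127 and 77.6, and Cdkn1a at 95.4 and 41.0. Within cluster 6, whose median mitochondrial share was 29.3% in WT and 35.5% in HKO, the levels were 35.6 and 17.4 for Sox9, 69.3 and 20.8 for Ly6d, and 52.3 and 16.8 for Cdkn1a. WT was therefore the higher library for all 3 genes within both clusters. In cluster 3, with 124 WT and 204 HKO barcodes at low mitochondrial share, Cdkn1a was closer, at 108 and 89.01 CPM.

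The same 3 genes were also lower in HKO in 2 other sets of barcodes. Barcodes of the hepatocyte clusters with fewer than 5000 UMIs (20144 in WT and 12341 in HKO), where small hepatocytes and droplets of free RNA cannot be told apart, gave Sox9 51.5 and 16.4 CPM, Ly6d 112 and 46.5 CPM, and Cdkn1a 107 and 37.5 CPM. T and NK-like barcodes, which should lack Sox9, carried 29.0 CPM of it in WT and 4.50 in HKO. The ratio of HKO over WT there was 0.155 (0.0521 to 0.388) for Sox9, 0.408 (0.234 to 0.699) for Ly6d and 0.277 (0.150 to 0.492) for Cdkn1a. In these 2 sets all 3 genes were thus higher in WT, and the part of free RNA in the hepatocyte ratios was not tested. Other classes did not all share this direction: Cdkn1a was higher in HKO in macrophage-like barcodes, at 1.90 times (1.10 to 3.49), and in B and plasma-like barcodes Ly6d had a ratio of 1.15 (0.908 to 1.47).

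Afp (chr5:90490737-90508907) had 84 UMIs in WT and 43 in HKO hepatocyte barcodes, or 1.71 and 2.06 CPM, a ratio of 1.21 (0.816 to 1.76). In WT, 20 of the 84 UMIs came from a single barcode, and the highest HKO barcode held 5. Golm1 (chr13:59634626-59675811), the gene with the seed matches, had 86 UMIs in WT (1.75 CPM) and 31 in HKO (1.49 CPM), with HKO over WT at 0.851 (0.545 to 1.30). No barcode held more than 2 Golm1 UMIs. Both intervals of the ratio included 1. With hepatocyte barcodes limited to at most 20% mitochondrial UMIs, however, the log2 ratio of Afp was 0.998 in place of 0.27, above the printed interval.

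H19 (chr7:142575529-142578143) had 24 UMIs in WT and 14 in HKO, or 0.488 and 0.672 CPM, a ratio of 1.38 (0.658 to 2.77). In HKO, 13 of the 14 UMIs came from 1 barcode, and in WT the highest barcode held 6 of 24. Cd24a (chr10:43578284-43584265) had 32 UMIs in WT (0.651 CPM) and 15 in HKO (0.720 CPM), with HKO over WT at 1.11 (0.557 to 2.10), and 8 of the 15 HKO UMIs were in 1 barcode. For both genes the HKO level rested largely on 1 barcode. The direction of Cd24a also turned with the processing: its log2 ratio of 0.15 was 1.22 at 10000 or more UMIs, 1.36 with hepatocytes gated without clusters, and -1.33 with barcodes weighted equally.

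Gpc3 (chrX:52272426-52613950) was the gene that differed most, with 19 UMIs in WT and 53 in HKO, levels of 0.387 and 2.55 CPM that stand 6.58-fold apart (3.83 to 11.8). One HKO barcode held 41.5% of the HKO UMIs, and without the highest barcode of each library the log2 ratio went from 2.72 to 2.11. The mean of Gpc3 was then under 1 CPM, so that it no longer entered the count of genes at least 2-fold higher, and the same held with hepatocytes gated without clusters, with or without a mitochondrial limit. At full depth 17 of 1934 WT barcodes (0.879%) and 12 of 1655 HKO barcodes (0.725%) had a Gpc3 UMI. Thinned to 5000 UMIs, 4 WT and 8 HKO barcodes did, a ratio of shares of 2.34 (0.626 to 10.6). The count per barcode differed too. In WT 2 barcodes held 2 UMIs and the rest 1, whereas in HKO 9 barcodes held 2 or more and the highest held 22 and 12. Gpc3 also had a ratio of 3.04 (1.22 to 7.53) in the hepatocyte-cluster barcodes under 5000 UMIs, from 12 and 11 UMIs.

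At 5000 UMIs, Cdkn1a was found in 31.8% of the WT hepatocyte barcodes (29.7 to 33.9) and in 15.8% of those of HKO (14.1 to 17.7), Ly6d in 28.4% (26.4 to 30.5) and 14.0% (12.4 to 15.8), and Sox9 in 18.9% (17.2 to 20.7) and 12.6% (11.01 to 14.3). Without thinning these shares were 66.4% and 27.8%, 53.2% and 22.8%, and 47.6% and 25.02%, which shows how far depth sets them. The ratio of the thinned shares, HKO over WT, was 0.498 (0.429 to 0.576) for Cdkn1a, 0.494 (0.422 to 0.577) for Ly6d and 0.666 (0.559 to 0.792) for Sox9. The 5 rare genes were each detected in at most 1.03% of barcodes in either library. For Afp the thinned shares were 1.03% and 0.967%, for Golm1 0.879% and 0.725%, for Cd24a 0.620% and 0.242%, for Gpc3 0.207% and 0.483%, and for H19 0.0517% and 0.121%. Every one of these 5 pairs had a ratio of shares whose interval included 1. The direction of such small counts turned with the draw. Over 100 thinning draws the mean share of Afp was 0.770% in WT and 0.885% in HKO, and that of H19 was 0.154% and 0.0967%.

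Thinned further to 1000 UMIs, the hepatocyte barcodes could be set beside the T and NK-like barcodes as a free RNA background (128 WT barcodes, and the 463 HKO barcodes that reached 1000 UMIs). At that depth 4.45% of WT and 2.48% of HKO hepatocyte barcodes held Sox9, against 1.56% and 0.648% of the lymphocyte-like barcodes. Ly6d was in 8.22% and 4.53% against 1.56% and 2.16%, and Cdkn1a in 8.43% and 3.87% against 3.91% and 1.73%. Golm1 went the other way, at 0.207% and 0.121% in hepatocyte barcodes and 3.12% and 2.81% in lymphocyte-like barcodes. The lymphocyte-like barcodes held Golm1 at 20.9 and 24.8 CPM, against 2.67 and 1.22 CPM in the hepatocyte-cluster barcodes under 5000 UMIs, so they give no background for it. Cdkn1a can also be expressed by lymphocytes, which limits it as a background measure.

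A hepatocyte barcode seldom held many of the 8 genes. At 5000 UMIs, 39.5% of WT and 63.1% of HKO barcodes had none, and 52 WT barcodes (2.69%) and 13 HKO barcodes (0.785%) had 3 or more. If the genes were detected independently at their own shares, 41.3 and 6.87 barcodes would be expected. Over 100 thinning draws the count ran from 35 to 67 in WT and from 7 to 23 in HKO. Without thinning, 506 WT and 59 HKO barcodes had 3 or more, against 402 and 38.6 expected, and differences in depth between barcodes raise this count on their own. At full depth 5 of the 8 genes were found together in 1 WT barcode (1.06 expected) and in 4 HKO barcodes (0.0246 expected).

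Of the 28 pairs, 3 had at least 5 expected barcodes in both libraries, all among Sox9, Ly6d and Cdkn1a. Ly6d and Cdkn1a were together in 196 WT barcodes where 175 were expected (1.12 times) and in 52 HKO barcodes where 36.7 were expected (1.42 times). The counting interval of the log2 ratio included 0 in WT (-0.042 to 0.37) and lay above it in HKO (0.081 to 0.89). Over the draws, which cover thinning noise only, the ratio ran from 1.06 to 1.34 in WT and from 1.32 to 1.99 in HKO. Sox9 and Ly6d were together in 93 WT barcodes where 104 were expected (0.898 times) and in 31 HKO barcodes where 29.2 were expected (1.06 times), and both ranges over the draws included 1. Sox9 and Cdkn1a were at 1.12 times in WT and 1.15 in HKO, and over the draws this ran from 0.840 to 1.19 and from 0.914 to 1.39. With doublets kept, the direction of this pair turned in both libraries, to log2 ratios of -0.11 and -0.14.

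Hepatocytes differ along the axis from portal vein to central vein, and each library was cut into 3 equal parts along an index made of 12 pericentral and 11 periportal genes. Sox9 was detected in 25.9%, 20.3% and 10.4% of periportal, middle and pericentral WT barcodes, and in 20.0%, 11.6% and 6.16% of HKO barcodes. Ly6d had the opposite order, with 14.6%, 35.2% and 35.3% in WT and 5.81%, 14.5% and 21.7% in HKO. Cdkn1a had a shallower course, with 28.3%, 33.2% and 34.0% in WT and 12.9%, 13.9% and 20.7% in HKO. For Sox9 and Ly6d the periportal and pericentral intervals did not overlap in either library, and for Cdkn1a they did not overlap in HKO but did in WT. Gpc3 was found in 0, 2 and 6 HKO barcodes and in 1, 1 and 2 WT barcodes in the same order. The index is the pericentral minus the periportal level, so a barcode low in both gene lists can rank as pericentral. Most genes of both lists were low in the HKO barcodes with 2 or more Gpc3 UMIs described below.

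**Figure D2:**
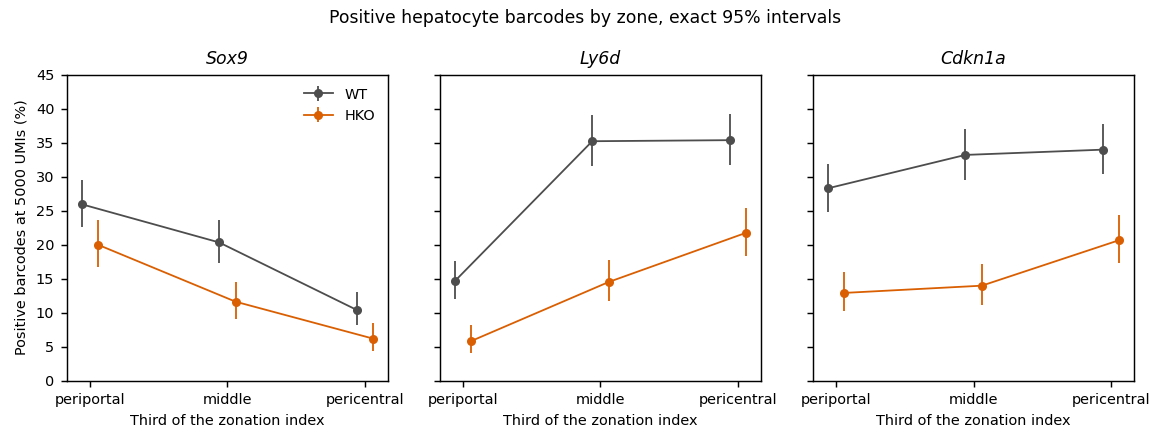
Percentage of hepatocyte barcodes with a UMI of the gene at 5000 UMIs, by part of the zonation index from periportal to pericentral, in WT (grey) and HKO (orange), with exact 95% intervals. Sox9 falls from 25.9% to 10.4% in WT and from 20.0% to 6.16% in HKO, and Ly6d rises from 14.6% to 35.3% and from 5.81% to 21.7%.

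The genes that most accompanied the 3 common genes were taken by the lower of the ratios in the 2 libraries (CPM in positive over negative hepatocyte barcodes), as a description. For Sox9 they included Spp1 (osteopontin, a bile duct and injury-response gene, 3.14 times in WT and 4.55 in HKO), Saa3 (an acute phase protein), Ltv1 and Sema3c, the last 3 at 1.67 to 2.81 times. For Ly6d they were S100a11 (a calcium-binding protein, 4.20 and 5.25 times), Fabp4 (a fatty acid-binding protein), Ubd, Cd63 (a tetraspanin) and Nid1 (a basement membrane protein), at 3.42 to 6.97 times. For Cdkn1a they were Fabp4 (2.33 and 4.08 times), Stmn1, Emd, S100a11 and Cfap298, at 1.75 to 4.36 times. Fabp4 and S100a11 were on the lists of both Ly6d and Cdkn1a. Ly6d-positive WT barcodes had a median mitochondrial share of 7.42% against 13.2% in negative ones, and in HKO 12.3% against 13.8%. For Cdkn1a these were 8.71% against 13.1% in WT and 11.6% against 13.9% in HKO.

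The 9 HKO barcodes with 2 or more Gpc3 UMIs, a group chosen after the values were seen, were examined in more detail. They were 0.544% of the HKO hepatocyte barcodes and held 50 of the 53 Gpc3 UMIs and 13 of the 14 H19 UMIs. Their Gpc3 counts were 22, 12, 3, 3, 2, 2, 2, 2 and 2, at 8645 to 29901 UMIs per barcode. Against the 1643 HKO barcodes without Gpc3, 4 of the 8 hepatocyte marker genes had an interval above 1 and 4 below, with a median ratio of 1.01. The 4 above were the secreted proteins Apoa1 (the main protein of high-density lipoprotein, 4.35 times), Fgb (a fibrinogen chain, 2.68), Alb (2.55) and Ttr (1.17). The 4 below were Serpina1c (0.863), the urea cycle enzymes Cps1 (0.435) and Ass1 (0.331), and Cyp2e1.

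Markers of other cells were scattered over few of the 9 barcodes. Over all 11603 genes with a mean of at least 1 CPM, 6.71% had an interval above 1 and 6.55% below in this comparison. The counts of listed genes and of the 8, here and below, also took in genes under that level, such as Epcam and H19. Of 6 cholangiocyte markers 3 had an interval above 1 and none below, with a median ratio of 2.27, and of 14 biliary and progenitor genes 4 were above and none below, with a median of 1.71. Krt19 had no UMI and Epcam 1, and Bicc1 had 8 UMIs in 4 barcodes (14.5 times). Of 12 T and NK markers 3 were above, namely Ccl5 with 12 of its 13 UMIs in 1 barcode, Nkg7 with 5 UMIs in 1 barcode and Klrb1c with 2 in 1 barcode, while Cd3e, Cd3g and Cd3d had none. With the barcode holding most UMIs of each gene left out, a choice made after seeing the data, 1 cholangiocyte marker, no biliary and progenitor gene and no T and NK marker had an interval above 1, against 3.09% of all genes. Of 9 stellate markers 1 was above, Reln (15.1 times), with 7 of its 10 UMIs in 1 barcode and a ratio of 5.05 (1.02 to 15.3) without it. The part of other cells in the profile was not tested.

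The zonal cytochromes were low in these 9 barcodes. Cyp2e1, a pericentral cytochrome, was at 66.7 CPM against 1898 (ratio 0.0352), with at most 3 UMIs in any of the 9. The level without Gpc3 was uneven, with a median barcode at 237 CPM and the 90th percentile at 6756 CPM, and the median of the 9 was 100.3 CPM. Cyp2f2, a periportal cytochrome, was at 42.5 CPM against 756 (ratio 0.0562), again with at most 3 UMIs, and the medians were 36.6 and 694 CPM. Of the 12 pericentral genes 7 had an interval below 1 and none above, and of the 11 periportal genes 8 were below and none above. Over all 11603 genes 6.55% were below. Since pericentral genes are low in most barcodes, as for Glul with a median of 0 in those without Gpc3, the sums overstate how far the 9 stood from a typical barcode.

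Several other tumor-associated genes had a large share of their UMIs in the same 9 barcodes. They held 89 of 118 Tspan8 UMIs in HKO hepatocytes (75.4%, a tetraspanin of digestive epithelia, in 9 of 9 barcodes), 91 of 133 Tff3 UMIs (68.4%, a mucosal trefoil peptide, in 7 of 9) and 28 of 44 Akr1c18 UMIs (63.6%, a hydroxysteroid dehydrogenase). They also held 102 of 202 Spink1 UMIs (50.5%, a trypsin inhibitor, in 8 of 9), 13 of 30 Scd2 UMIs (43.3%, a fatty acid desaturase), 33 of 209 Cd63 UMIs (15.8%) and 339 of 4381 Lcn2 UMIs (7.74%, lipocalin 2). Of 14 other liver tumor genes, 8 had an interval above 1 and none below, against 6.71% of all genes above, and 7 were still above and none below with the highest barcode of each gene left out, against 3.09% and 9.41%. Ccnd1 (0.926) and Ctnnb1 (0.907) had ratios near 1. Mdk, Nqo1 and Birc5 had no UMI in the 9 barcodes.

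Of the other 7 genes, 5 had an interval above 1 in these barcodes and none below, against 6.71% of all genes above. Ly6d was in 9 of 9, at 625 CPM against 59.1 (ratio 10.6, 8.56 to 12.9). Without the barcode with most Ly6d it was still 9.28 times (7.23 to 11.7). Cdkn1a was at 212 CPM against 39.8, a ratio of 5.33, but 27 of its 35 UMIs were in 2 barcodes, and without these it was at 67.98 CPM (ratio 1.71, 0.734 to 3.38). Sox9 was at 97.1 CPM against 29.1 and in 5 of 9, and without its 2 highest barcodes the ratio went from 3.33 to 1.81 (0.660 to 3.95). Afp was in 4 of 9, at 54.6 CPM against 1.65 (ratio 33.1), and at 15.5 times (4.01 to 43.6) without the barcode that held 5 of its 9 UMIs. Without its 2 highest barcodes Afp was left with 2 UMIs and a ratio of 8.39 (0.976 to 32.7), so that of these 7 genes Ly6d alone kept an interval above 1 when 2 barcodes were left out. All 13 H19 UMIs were in 1 barcode. Cd24a had no UMI in them.

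Of 21 p53 and senescence genes, 8 had an interval above 1 and none below, against 6.71% of all genes above. With the highest barcode of each gene left out only 2 did, against 3.09%. Among the 8, Cdkn2b and Psrc1 lay under the mean of 1 CPM that the shares of all genes require, and Cdkn2b was 1 of the 2. Mdm2, the ubiquitin ligase that targets p53, was at 6.11 times, and 24 of its 33 UMIs were in 1 barcode, without which the ratio was 1.86 (0.847 to 3.55). Btg2 was at 3.72 times, and at 3.02 times (2.32 to 3.86) without its highest barcode. Mki67 and Top2a, which mark dividing cells, had no UMI, and of 12 proliferation genes none had an interval off 1. Only 2 of the 12 had any UMI in the 9 barcodes. Mki67 and Top2a were at 1.20 and 2.16 CPM in all HKO hepatocyte barcodes, so their absence from 9 barcodes says little. Of 11 fetal and imprinted growth genes with UMIs in either set of barcodes none had an interval off 1 either, and only 3 had a UMI in the 9. Of the 8 regulators of Afp, H19 and Gpc3, 2 had an interval below 1 and 1 above. Those below were Zbtb20, a repressor of Afp, at 461 CPM against 870 (ratio 0.530), and Cebpa, an activator, at 66.7 against 125 (ratio 0.533). The genes with the largest ratio after Gpc3, named by that rank, were Thsd4, Cyp2a4, Tspan8, Tff3, Akr1c18, Gpc6, Spink1, Fabp5 and Nid1. Cyp2a4 had 105 UMIs in the 9 barcodes, and its reads are hard to separate from those of its near-identical neighbour Cyp2a5.

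**Figure D3:**
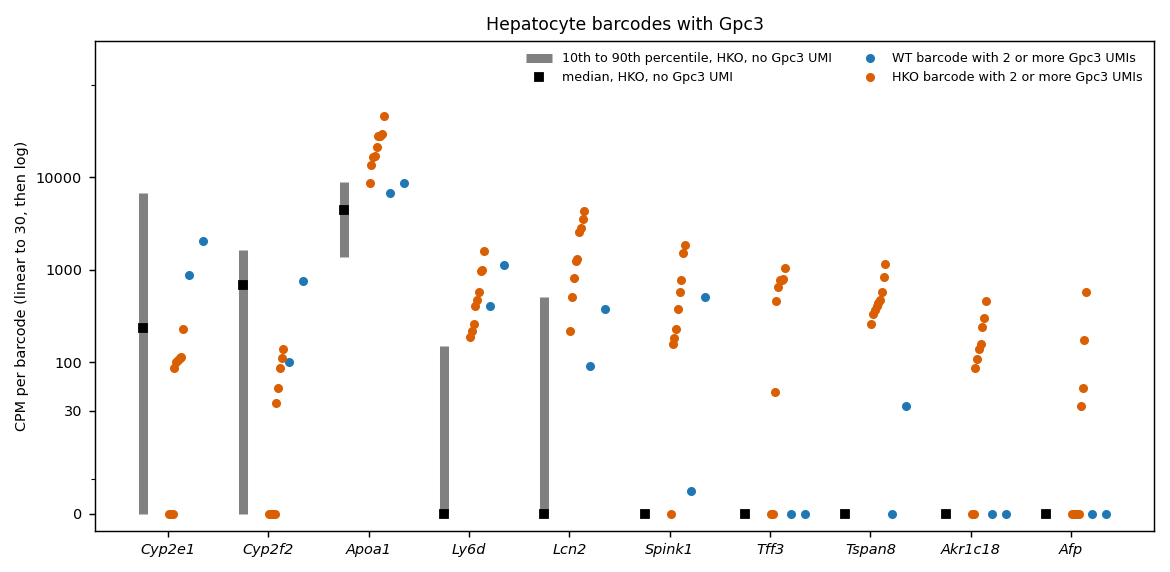
CPM per hepatocyte barcode of 10 genes, on an axis that is linear to 30 and logarithmic above, for the 9 HKO barcodes (orange) and 2 WT barcodes (blue) with 2 or more Gpc3 UMIs. Grey bars are the 10th to 90th percentile and black squares the median of the 1643 HKO barcodes without Gpc3, and the 9 HKO barcodes lie at or below 231 CPM for Cyp2e1 and at or above 187 CPM for Ly6d and 261 CPM for Tspan8.

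In WT the 17 barcodes with Gpc3 were set beside the 1917 without. Of the 14 other tumor genes 5 had an interval above 1 and none below, and of 21 p53 and senescence genes 6 were above and none below, against 11.4% of all genes above and 5.33% below. Among the tumor genes Tff3 was at 46.6 times, with UMIs in 3 of the 17, and Lcn2 at 1.68 times. Of 12 pericentral genes 5 were below and none above, with Cyp2e1 at 0.928 times. Of 9 macrophage markers 5 were above, C1qa at 4.87 times in 6 of the 17, and the part of macrophage RNA was not tested. Single WT barcodes held parts of the HKO pattern. One of the 2 WT barcodes with 2 Gpc3 UMIs had 29432 UMIs, 33 of Ly6d, 15 of Spink1 and 3 of Cyp2f2 but none of Tff3. Among the 15 with 1 Gpc3 UMI, 1 had 33 Tff3 UMIs and another 10. The WT barcodes with Gpc3 included 6 of cluster 10, with 33890 to 153068 UMIs, in which a count of 1 or 2 is a low level. The highest H19 barcode of WT (6 UMIs) had 717 UMIs of Spp1 and 16 of Sox9 but only 5 of Cyp2e1. The highest Afp barcode of WT (20 UMIs) had 768 UMIs of Cyp2e1 and none of Gpc3, H19 or Sox9, and the highest Afp barcodes of HKO (5 UMIs each) were 1 of the 9 Gpc3 barcodes and 1 with 222 UMIs of Glul (glutamine synthetase, a gene of hepatocytes around the central vein).

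Biliary cells were few: 7 WT and 24 HKO barcodes were cholangiocyte-like. Sox9 was at 601 CPM in WT (478 to 747) and 564 in HKO (479 to 660), and all 7 WT and 22 of 24 HKO barcodes held it. Cd24a was at 139 CPM (83.9 to 218) and 266 (208 to 334). These are the biliary genes of the group, and the cholangiocyte-like level of each was above its hepatocyte level in both libraries with no overlap of intervals. H19 had no UMI in the 7 and 24 barcodes, and Golm1 had 3 and 8 UMIs, or 22.0 and 29.1 CPM. Golm1 too was above its hepatocyte level (1.75 and 1.49 CPM) in both libraries with no overlap of intervals. The levels depend on the definition of the class. A gate of 3 or more UMIs from at least 2 cholangiocyte markers took 242 WT and 89 HKO barcodes, in which Sox9 was at 63.1 and 158 CPM and Cd24a at 2.56 and 68.6 CPM.

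One HKO barcode among the 24 stood apart. It had 33785 UMIs, with 89 of Ly6d, 20 of Cdkn1a, 19 of Sox9, 16 of Spink1, 5 of Afp and 2 of Gpc3, and none of Krt19, Krt7 or Epcam, the defining cholangiocyte keratins and adhesion molecule. Without it, a choice made after seeing the data, Ly6d in the HKO cholangiocyte-like barcodes went from 342 to 20.7 CPM (WT 36.7) and Cdkn1a from 164 to 104 (WT 132). Afp and Gpc3 went to 0, as in WT. Sox9 stayed at 564 CPM and Cd24a was at 299. Ly6d, Spink1 and Gpc3 were also found together in 8 of the 9 Gpc3 hepatocyte barcodes.

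Ly6d, Cd24a and Cdkn1a were also found in other classes. Ly6d was at 461 CPM in WT and 530 in HKO B and plasma-like barcodes (33 and 167 barcodes), and Cd24a at 57.6 and 86.8 there. HKO neutrophil-like barcodes (27) had Cd24a at 267 CPM, and the 3 WT ones held 1 UMI. Cdkn1a was at 104 and 92.8 CPM in endothelial-like, 114 and 68.1 in monocyte and dendritic-like, and 43.4 and 82.3 in macrophage-like barcodes. Afp, Gpc3 and H19 each had at most 5 UMIs in any of these classes in either library.

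**Figure D4:**
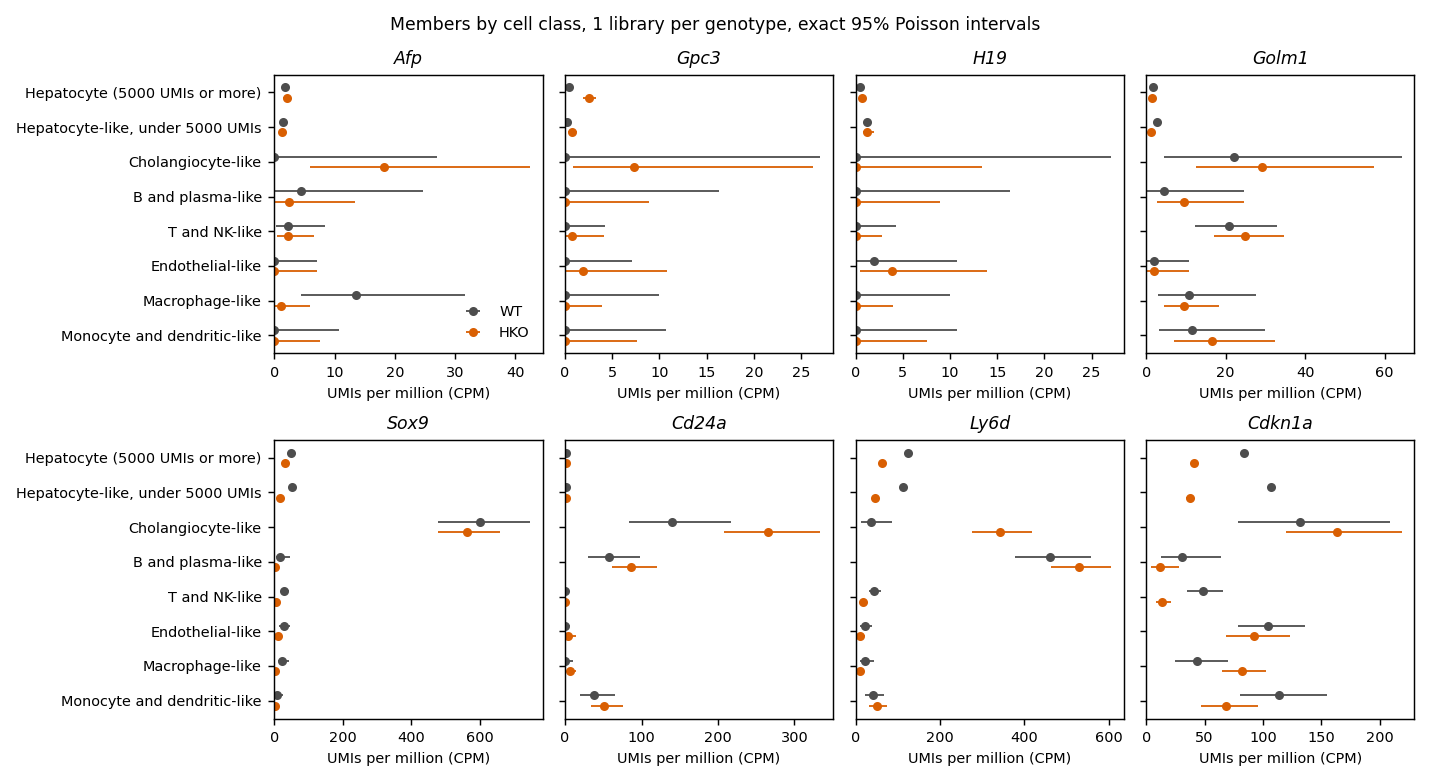
CPM of each gene by cell class in WT (grey) and HKO (orange), 1 library each, with exact 95% Poisson intervals and a separate linear axis for each gene. Among the classes drawn, Sox9 and Cd24a are highest in cholangiocyte-like barcodes. Ly6d is highest in B and plasma-like barcodes and, through 1 barcode, is also high in HKO cholangiocyte-like barcodes. Neutrophil-like barcodes are not drawn, and in HKO their Cd24a was at 267 CPM, against 266 in cholangiocyte-like ones.

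Genes that act on or beside the 8 were compared between the libraries in hepatocyte barcodes. Of the 8 regulators of Afp, H19 and Gpc3, none was 2-fold different and the median log2 ratio was 0.07. The repressors Zhx2, Zfhx3 and Zbtb20 had ratios of 1.02, 1.39 and 1.09, and the activators Foxa1, Foxa2, Cebpa and Nr5a2 had 0.975, 1.39, 0.715 and 1.14. Of 14 fetal and imprinted growth genes 6 were measured (mean of at least 1 CPM). Peg3 (2.05) and Cdkn1c (2.88, a cell cycle inhibitor) were at least 2-fold higher in HKO. Both lay at 1 to 3 CPM, where 4.89% of genes were that much higher, against 1.34% of all genes. Cdkn1c passed the mean only through HKO, being at 0.834 CPM in WT. Igf2r, with 1383 and 441 UMIs, had a ratio of 0.752 and Igf2bp2 one of 0.739.

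Of 21 p53 and senescence genes 17 were measured, 15 of them below 1, against 50.8% of all genes, and 10 with an interval below 1, against 25.9%, and none was 2-fold different. Their median log2 ratio was -0.26, on the side of Cdkn1a, with Trp53inp1 at 0.600 and Btg2 at 0.666. Of 16 biliary and progenitor genes 11 were measured. Onecut1 (a transcription factor of hepatocytes and bile ducts) was the 1 gene at least 2-fold higher, against 1.34% of all genes. Its ratio was 4.46 (4.05 to 4.92). Tm4sf4 was at 0.664, Anxa5 at 0.926 and Spp1, the companion of Sox9, at 0.543.

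Of 14 other tumor genes 13 were measured, with a median log2 ratio of 0.65. Lgals3 (0.458) and Myc (0.421) were at least 2-fold lower in HKO, against 1.47% of all genes and 3.43% of those at 1 to 3 CPM, where Myc lay. Akr1c18 (14.8), Tspan8 (9.94), Tff3 (3.20), Lcn2 (2.15) and Scd2 (2.02) were at least 2-fold higher, against 1.34% of all genes and 4.89% of the genes at 1 to 3 CPM, where Akr1c18 and Scd2 lay, and the share of their HKO UMIs in the 9 Gpc3 barcodes is given above. Akr1c18, Tspan8 and Scd2 were under 1 CPM in WT and passed the mean of 1 CPM only through HKO. Ctnnb1 (beta-catenin) was at 0.905. Of 12 proliferation genes 8 were measured and none was 2-fold different, with Pcna at 0.831 and Ccne2 at 1.51.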

How the data were processed

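Liver cells of 1 WT and 1 HKO library were analysed from the deposited matrices, in which the authors' Cell Ranger run gave whole counts (UMIs) per gene and barcode (version 7.1.0 per the file headers). The submitters' processing notes name mm10, R 3.0 and Seurat 3. Barcodes with at least 500 UMIs, 300 genes and at most 50% mitochondrial UMIs were kept. Scrublet's own threshold marked 0, so the top-scoring 0.8% per 1000 barcodes were left out as doublets (7019 WT, 2664 HKO). Leiden clusters (scanpy 1.11.5, 2000 variable genes without the 8, 30 components, 15 neighbours, resolution 1.0) were named from markers. UMIs were summed per class and library. Intervals were exact Poisson, Clopper-Pearson or conditional binomial, at 95%, and cover counting error only. Members and lists were chosen with earlier results of these data known. Named genes were the 8, all regulators, each list's 2-fold genes and 2 with the highest mean CPM, 5 leading genes per common gene, and pairs with at least 5 expected barcodes. Of these, 1 regulator and 1 leading gene are not reported here. Gene coordinates (GRCm38) and 3' UTR sequences are from GENCODE, miRNA sequences from RefSeq. Calculations were tested on simulated data. Alternatives varied depth, mitochondrial limit, doublets, class definition, weighting, thinning and single barcodes.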

Additional observations from a re-analysis of the deposited data

Results flagged for a closer look

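Opposite directions of HKO over WT in another class and in hepatocyte barcodes were seen for 3 combinations, each with intervals on opposite sides of 1. The difference itself was not tested. Ly6d had a ratio of 9.33 (3.86 to 29.4) in cholangiocyte-like barcodes against 0.507 in hepatocyte barcodes, and 89 of its 94 HKO UMIs there came from the barcode without Krt19, Krt7 and Epcam. Cdkn1a had a ratio of 1.90 (1.10 to 3.49) in macrophage-like barcodes (16 and 77 UMIs) against 0.489 in hepatocyte barcodes. Cdkn1a had a ratio of 1.80 (1.01 to 3.43) in barcodes with both endothelial and macrophage markers (15 and 56 UMIs).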

How the results depend on the processing

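No paired analysis was possible because each genotype had 1 library. Of the main values, 20 alternatives left them within their interval or count, 8 moved them and 1 turned the direction. For single genes, pairs, zones and classes 225 alternatives did not move the value and 42 did. The count of genes at least 2-fold lower in HKO was 2 in place of 1 with barcodes weighted equally and also without the highest barcode of each library. The count at least 2-fold higher was 0 in place of 1 without the highest barcode, with hepatocytes gated without clusters, and with that gate and no mitochondrial limit (added after seeing the data), because the mean of Gpc3 went under 1 CPM. Its log2 ratio was then 2.11, 2.22 and 2.11 against 2.72. The median log2 ratio was -0.98 over the 3 genes with at least 10 CPM. The log2 ratio of shares of barcodes with 3 or more genes was -1.78, and it was -0.62 at 10000 or more UMIs (25 and 10 barcodes), -2.88 without thinning, and 1.81, the opposite direction, with 2 or more UMIs needed (1 and 3 barcodes). Thinning to 1000 UMIs gave no value for it. H19 had a log2 ratio of -2.93 without its highest barcode, against 0.46. At 3 counts of the barcodes, a count of 0 would allow a share of hepatocyte barcodes with a UMI of up to 0.155% in WT and 0.181% in HKO, which limits barcodes with a UMI and not cells that express the gene, and the thinned H19 shares lay below these limits.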
